A study of Mus musculus with 6 samples.

Results

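Polycomb and heterochromatin factors are the proteins that place, read and remove the repressive histone marks H3K27me3, H2AK119ub and H3K9me3, or that anchor silent chromatin at the nuclear edge. The account covers 39 genes, listed by symbol and found through their Ensembl identifiers among the 54146 genes counted, and all 39 had enough reads to be tested. They were measured by total RNA sequencing in 4T1, a mammary carcinoma cell line of the BALB/c mouse strain that is grown in culture. The 6 libraries were 2 from Ki-67 knockout clone 1 (Mki67-/-), 2 from Ki-67 knockout clone 2 (Mki67-/-) and 2 from wild-type (WT) 4T1 cells, with no other treatment. Each knockout line is 1 clone, so the loss of Ki-67 and the differences between clonal lines cannot be told apart. Nothing in the labels tells if replicate libraries are from cultures grown apart; the p-values therefore cover the library-to-library spread alone, and that spread may be technical.

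Polycomb repressive complex 2 (PRC2) methylates histone H3 at K27 through EZH2 or EZH1, with EED and SUZ12 as obligate core subunits. Polycomb repressive complex 1 (PRC1) is built on RING1 or RNF2 with 1 of the PCGF proteins. It ubiquitinates histone H2A, and its canonical forms carry a chromobox (CBX) protein that binds H3K27me3 and a polyhomeotic (PHC) protein that joins complexes together through its SAM domain. In constitutive heterochromatin, H3K9 methyltransferases such as SUV39H2 and SETDB1 write the mark that the HP1 proteins (CBX1, CBX3, CBX5) read, and lamin B receptor and lamin B1 hold such chromatin at the nuclear periphery. Ki-67 itself coats mitotic chromosomes and is used as a marker of proliferating cells.

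The targeted gene was lower in both knockout clones. Mki67 had 85.8 and 103 CPM (counts-per-million, of gene reads) in knockout clone 1, 39.9 and 52.8 CPM in knockout clone 2, and 736 and 647 CPM in WT cells. The 4 knockout libraries lay below both WT libraries. Its log2 fold change was -2.88 in clone 1 and -3.90 in clone 2 (adjusted p = 4.03e-10 and 2.77e-11, edgeR quasi-likelihood test). The libraries held between 10428970 and 22658499 gene reads, and WT replicate 1 was the smallest. Counts of replicate libraries differed beyond counting noise in all 3 groups. The chi-square per degree of freedom was 19.65 in clone 1, 27.82 in clone 2 and 86.87 in WT. The WT pair, the reference of both clones, thus differed most, while the fit estimates the spread over all 3 groups together. Summed epithelial markers were 3848 to 4168 CPM in the knockout libraries and 2720 and 3034 CPM in WT (7 of 8 markers tested, Krt5 at 0). Of the 7 epithelial markers tested, 3 were higher in both clones, and 1 was lower in clone 2. Summed leukocyte markers were 5.13 to 7.07 CPM in the knockout libraries and 37.2 and 44.1 CPM in WT, almost all from Cd68 and Cd74. Cd3e, Ms4a1, Adgre1 and Nkg7 were at 0 in every library. Of the 3 leukocyte markers tested, 2 were lower in both clones. The remaining 1 was higher in both, with a log2 fold change of 1.16 in their mean. Summed fibroblast markers were 14.5 to 14.7 CPM in the knockout libraries and 39.4 and 39.5 CPM in WT, nearly all from Pdgfra, with Col3a1 and Lum at 0. Summed endothelial markers were 9.58 to 14.3 CPM in the knockout libraries and 10.3 and 14.8 CPM in WT, with Cdh5 and Kdr at 0. The part of these marker differences in the results below was not tested.

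Promoter sequences are shown for 5 genes that changed, because E2F factors drive many genes of the cell division cycle and Ezh2 is a textbook E2F target. They come from RefSeq on GRCm38.p6, 300 bases around the annotated start, 5′ to 3′ on the gene's strand. Capitals mark the E2F motif TTTNNCGC with G or C at both N, searched on both strands. For Phc2, which has 3 annotated starts, the first is shown.
Ezh2, chr6:47594981-47595280, minus strand: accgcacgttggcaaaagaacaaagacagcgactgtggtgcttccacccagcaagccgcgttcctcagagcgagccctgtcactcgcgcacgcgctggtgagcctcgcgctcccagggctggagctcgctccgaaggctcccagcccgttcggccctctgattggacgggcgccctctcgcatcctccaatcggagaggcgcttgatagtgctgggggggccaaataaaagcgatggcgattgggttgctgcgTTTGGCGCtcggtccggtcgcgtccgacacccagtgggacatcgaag
Phf19, chr2:34913927-34914226, minus strand: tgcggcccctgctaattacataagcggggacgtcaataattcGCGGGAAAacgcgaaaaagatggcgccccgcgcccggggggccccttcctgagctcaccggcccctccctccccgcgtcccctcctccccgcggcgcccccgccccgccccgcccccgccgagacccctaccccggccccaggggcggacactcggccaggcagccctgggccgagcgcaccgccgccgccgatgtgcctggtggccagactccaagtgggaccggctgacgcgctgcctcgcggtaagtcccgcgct
Suz12, chr11:79992856-79993155, plus strand: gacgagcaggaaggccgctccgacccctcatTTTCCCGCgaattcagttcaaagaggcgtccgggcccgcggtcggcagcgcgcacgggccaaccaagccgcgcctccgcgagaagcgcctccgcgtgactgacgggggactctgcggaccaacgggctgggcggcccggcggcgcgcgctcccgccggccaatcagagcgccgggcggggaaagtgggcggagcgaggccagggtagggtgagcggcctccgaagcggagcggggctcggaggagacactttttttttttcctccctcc
Phc2, chr4:128654452-128654751, plus strand: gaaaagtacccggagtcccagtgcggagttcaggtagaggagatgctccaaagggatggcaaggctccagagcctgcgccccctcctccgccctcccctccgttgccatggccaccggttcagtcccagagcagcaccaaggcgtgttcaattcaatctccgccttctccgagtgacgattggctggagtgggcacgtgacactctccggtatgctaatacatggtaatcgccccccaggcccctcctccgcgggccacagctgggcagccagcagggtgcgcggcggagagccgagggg
Phc1, chr6:122340178-122340477, minus strand: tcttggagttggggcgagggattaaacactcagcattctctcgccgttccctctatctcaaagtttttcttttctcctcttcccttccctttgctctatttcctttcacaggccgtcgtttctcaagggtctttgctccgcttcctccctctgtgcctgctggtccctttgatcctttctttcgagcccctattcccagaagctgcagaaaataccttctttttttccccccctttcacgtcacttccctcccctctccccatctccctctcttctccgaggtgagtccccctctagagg
The motif was present in the promoters of Ezh2, 4 bases after its start, and of Phf19 and Suz12, 208 and 219 bases before theirs. The windows of Phc2 and Phc1 did not hold these letters. Of the 35 members with a promoter entry, 4 held the motif (11.4%), the other being Cbx3, against 2.61% of all 27025 genes with an entry. The member promoters were also richer in G and C than all promoters, with a median of 66.2% against 52.7% and a median of 28 against 7 CpG dinucleotides per window. TTTGAA, the core of the cell cycle genes homology region (CHR), was present in 8 of the 35 (22.9%) and in 20.2% of all genes. A match describes the letters of the window and does not show binding. Of the 4 genes with the E2F motif, Ezh2 and Phf19 were higher in both clones and Suz12 was lower in clone 2. Cbx3 passed the test in neither clone. The part of E2F factors in these changes was not tested.

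The 39 genes as a whole did not move in a single direction. In the mean of both knockout clones against WT, 13 were higher and 7 were lower (51.3%), where 56% of all 13755 tested genes were called at an adjusted p under 0.05 (26.6% higher and 29.4% lower). Knockout clone 1 had 12 higher and 4 lower members (41%), beside a background of 50.9% (24.7% higher and 26.2% lower). Knockout clone 2 had 10 higher and 9 lower (48.7%), beside 53.4% (25.3% higher and 28.2% lower). Under upper-quartile scaling the split was 11 higher and 7 lower in clone 1, and 11 higher and 10 lower in the mean of both. The median log2 fold change of the members was -0.003 in the mean of both clones and that of all tested genes was -0.022. Their median absolute change was 0.31 on the log2 scale against 0.45 for all tested genes, and 1 of 39 (2.56%), Phc2, passed a 2-fold change, against 20.1% of all genes. The tested genes were not matched to the members by expression level, so the sizes of change are not compared like with like. The share of members called lay near that of all genes in each comparison. Together they took 0.364% to 0.388% of the gene reads in the knockout libraries and 0.326% and 0.349% in WT. In a bulk culture, fewer cells that express a gene and less RNA per cell cannot be told apart.

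**Figure D1:**
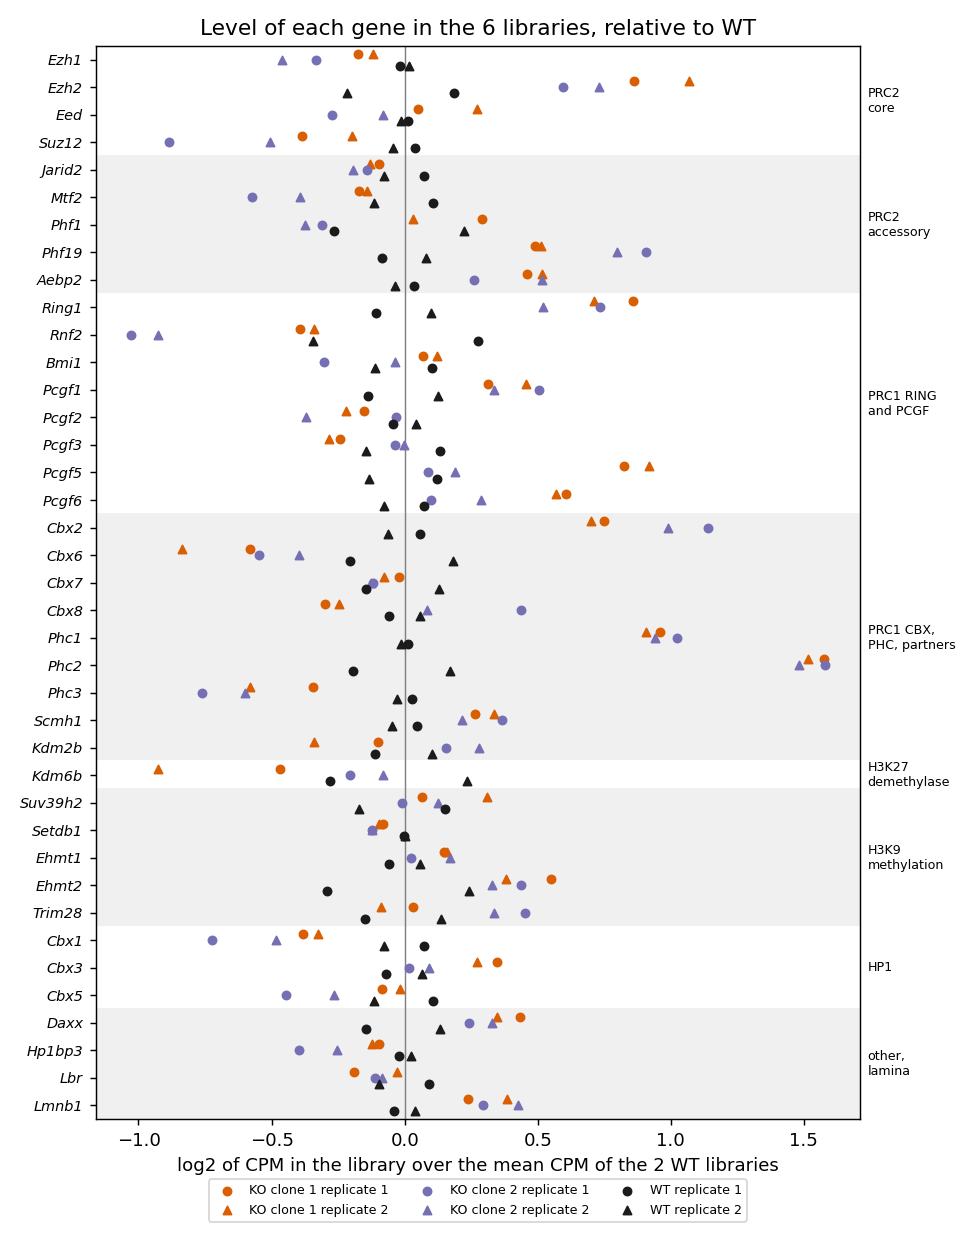
Each point is 1 library: the horizontal axis is the log2 of its CPM over the mean CPM of the 2 WT libraries, with knockout clone 1 in orange, knockout clone 2 in purple and WT in black, and the 39 genes run down the page by class. The 4 knockout points lie right of both WT points for 13 genes and left of them for 9, and Phc2 stands farthest to the right.

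In each of the 2 clones, 9 members were higher: Ezh2, Phf19, Aebp2, Ring1, Cbx2, Phc1, Phc2, Ehmt2 and Lmnb1. Another 3 were lower in each: Cbx6, Phc3 and Cbx1. Of all tested genes, 17.9% were higher in both and 20% lower in both. Both contrasts use the same 2 WT libraries, so a WT library that deviates moves both. The CPM of the 4 knockout libraries lay above both WT libraries for 13 members (27.7% of all tested genes did so) and below them for 9 (30.1%).

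Among the PRC2 core genes, the catalytic subunit Ezh2 was higher in both clones, while Suz12 and Ezh1 were lower in clone 2. Ezh2 (ENSMUSG00000029687) had 83.7 and 96.6 CPM in knockout clone 1, 69.4 and 76.4 CPM in knockout clone 2, and 52.4 and 39.6 CPM in WT. All 4 knockout libraries lay above both WT libraries. The log2 fold change was 0.98 ± 0.14 (SE) in clone 1 and 0.67 ± 0.14 in clone 2 (adjusted p = 3e-05 and 0.00081). Suz12, the zinc-finger scaffold of the complex, went the other way, with 71.4 and 81.3 CPM in clone 1, 50.4 and 65.6 CPM in clone 2, and 95.9 and 90.5 CPM in WT. The knockout libraries lay below WT, and the change passed the test in clone 2 (log2 fold change -0.68, adjusted p = 0.000536) but not in clone 1 (-0.29, adjusted p = 0.087). Ezh1, the alternative methyltransferase that is common in non-dividing cells, had 33.4 and 34.7 CPM in clone 1, 29.97 and 27.4 CPM in clone 2, and 37.3 and 38.1 CPM in WT. It was lower in clone 2 (log2 fold change -0.40, adjusted p = 0.0122), a call lost without clone 2 replicate 2 (-0.34). Eed, which binds H3K27me3 and stimulates the enzyme, had fitted changes of 0.17 in clone 1 and -0.17 in clone 2, and neither passed the test. Over the 4 core genes the median log2 fold change in the mean of both clones was -0.14, with 1 higher and 2 lower. Ezh1's call in that mean was lost without any 1 of 5 libraries, with values from -0.28 to -0.25 (without WT replicate 1 or 2, clone 1 replicate 1 or 2, or clone 2 replicate 2).

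The PRC2 accessory subunits were split in a similar way. Phf19, a Polycomb-like protein that recruits PRC2 to CpG islands, had 73.5 and 74.6 CPM in knockout clone 1, 98.1 and 90.9 CPM in knockout clone 2, and 49.3 and 55.2 CPM in WT. The 3 groups did not overlap, with clone 2 highest. The log2 fold change was 0.50 ± 0.12 in clone 1 and 0.85 ± 0.12 in clone 2 (adjusted p = 0.00225 and 1.79e-05). Aebp2, a cofactor of the JARID2-containing form of PRC2, had 63.2 and 65.7 CPM in clone 1, 55.1 and 65.8 CPM in clone 2, and 47.0 and 44.9 CPM in WT. It was higher in both clones by 0.49 and 0.40 on the log2 scale (adjusted p = 0.00377 and 0.0133), although the clone 2 call was lost without clone 2 replicate 2 (0.25). Mtf2, the Polycomb-like paralogue of Phf19, was lower in clone 2 (log2 fold change -0.47, adjusted p = 0.0054), with 41.1 and 42.0 CPM in clone 1, 31.2 and 35.3 CPM in clone 2, and 49.8 and 42.8 CPM in WT. The Mtf2 call in clone 2 was lost without clone 2 replicate 1 (-0.38), and its call in the mean of both clones (-0.31) was lost without WT replicate 1 (-0.20), clone 2 replicate 1 (-0.27), clone 1 replicate 1 (-0.31) or clone 1 replicate 2 (-0.32). Jarid2, which targets PRC2 to chromatin, passed no test (9.58 to 10.3 CPM in the knockout libraries and 11.5 and 10.4 CPM in WT). Phf1, the third Polycomb-like gene, passed no test against WT either, with 16.7 and 13.9 CPM in clone 1, 11.01 and 10.5 CPM in clone 2, and 11.3 and 15.9 CPM in WT.

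In the catalytic part of PRC1, Ring1 was higher in both clones, while its paralogue Rnf2 was lower in clone 2. Ring1 had 37.7 and 34.1 CPM in knockout clone 1, 34.6 and 29.8 CPM in knockout clone 2, and 19.3 and 22.3 CPM in WT. All knockout libraries lay above WT, and the log2 fold change was 0.78 ± 0.14 in clone 1 and 0.62 ± 0.14 in clone 2 (adjusted p = 0.000187 and 0.00125). Rnf2, which encodes RING1B, the main H2A ubiquitin ligase of embryonic stem cells, had 42.4 and 44.0 CPM in clone 1, 27.3 and 29.3 CPM in clone 2, and 67.5 and 43.9 CPM in WT. Clone 2 lay below both WT libraries, whereas clone 1 was level with WT replicate 2. The log2 fold change of Rnf2 passed the test in clone 2, at -0.97 (adjusted p = 0.000178), and missed it in clone 1, at -0.36 (adjusted p = 0.0803). Its size rested partly on WT replicate 1: without it, the change was -0.62 in clone 2 and -0.32 in the mean of both clones (-0.66 with it). In clone 1 the value of Rnf2 ran from -0.642 to -0.017 over the alternative fits.

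Of the PCGF subunits, which define the PRC1 subtypes, Pcgf5 and Pcgf6 were higher in clone 1. Pcgf5, part of a non-canonical PRC1, had 52.2 and 55.7 CPM in knockout clone 1, 31.3 and 33.6 CPM in knockout clone 2, and 32.1 and 26.9 CPM in WT. Clone 1 lay above all other libraries, and clone 2 overlapped WT. The log2 fold changes were 0.88 ± 0.13 and 0.15 ± 0.13 in clones 1 and 2 (adjusted p = 3.6e-05 and 0.355), and the difference between the clones passed its own test, given below. Pcgf6, of the germ-line gene repressing form, was likewise highest in clone 1, but its clone 2 libraries lay above WT, with 43.4 and 42.3 CPM in clone 1, 30.5 and 34.8 CPM in clone 2, and 29.98 and 27.04 CPM in WT (log2 fold changes 0.59 and 0.20 in clones 1 and 2, adjusted p = 0.00111 and 0.199). Bmi1 and Pcgf2, the PCGF subunits of canonical PRC1, as well as Pcgf1 and Pcgf3, passed no test in either clone. Bmi1 had 63.5 and 65.9 CPM in clone 1, 49.1 and 59.0 CPM in clone 2, and 65.1 and 56.0 CPM in WT. Of the 50-base stretches of Bmi1 and Pcgf1 exons, 16.7% and 15.3% also occur in other genes or pseudogenes, so reads can be lost there to multiple mapping and both values are uncertain. Across the 8 RING and PCGF genes, 3 were higher and 1 was lower in the mean of both clones (median log2 fold change 0.18), and the Pcgf6 call in that mean was lost without WT replicate 2 (0.32).

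The largest change among the 39 was that of the polyhomeotic gene Phc2, and its paralogues split, with Phc1 higher and Phc3 lower. Phc2 (ENSMUSG00000028796, chromosome 4) had 334 and 321 CPM in knockout clone 1, 335 and 313 CPM in knockout clone 2, and 98.0 and 126 CPM in WT. The lowest knockout library was well above the highest WT library, and both clones reached nearly the same level. The log2 fold change was 1.54 ± 0.13 in clone 1 and 1.53 ± 0.13 in clone 2 (adjusted p = 9.22e-08 and 8.67e-08), or 2.9-fold in the mean of both. Phc1, on chromosome 6, had 34.7 and 33.5 CPM in clone 1, 36.4 and 34.4 CPM in clone 2, and 18.05 and 17.7 CPM in WT. It was higher by 0.93 in clone 1 and 0.98 in clone 2 on the log2 scale (SE 0.13 each, adjusted p = 1.6e-05 and 8.07e-06). Phc3, the remaining polyhomeotic gene, was lower, with 41.2 and 35.0 CPM in clone 1, 30.9 and 34.5 CPM in clone 2, and 53.4 and 51.3 CPM in WT. Its log2 fold change was -0.46 in clone 1 and -0.67 in clone 2 (adjusted p = 0.007 and 0.000366), and the clone 1 call was lost without clone 1 replicate 2 (-0.34). Scmh1, a sex-comb protein that associates with PRC1, was higher in the mean of both clones only (0.30, adjusted p = 0.0337), a call lost without any 1 of 4 libraries: WT replicate 2 (0.25), clone 1 replicate 1 (0.31), clone 1 replicate 2 (0.29) or clone 2 replicate 1 (0.27).

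**Figure D2:**
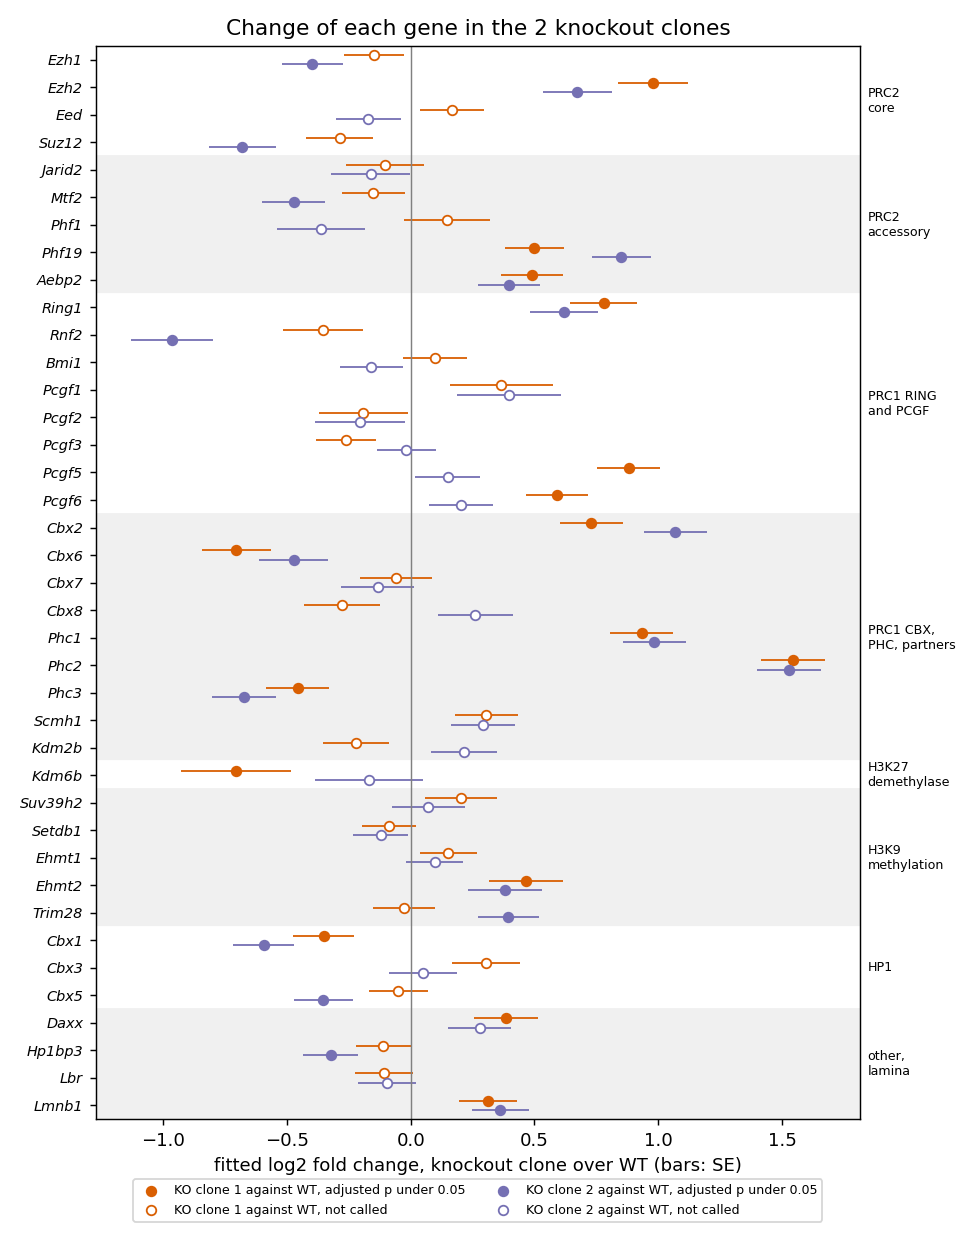
The horizontal axis is the fitted log2 fold change of each gene, knockout clone over WT, with bars of 1 SE; orange points are clone 1, purple points clone 2, and filled points passed an adjusted p under 0.05. Phc2 is at 1.54 and 1.53, and Ring1 and Rnf2, Phc2 and Phc3, and Cbx2 and Cbx6 lie on opposite sides of 0.

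The chromobox genes, whose products bind H3K27me3, also split. Cbx2, which compacts nucleosomes in vitro, had 39.1 and 37.9 CPM in knockout clone 1, 51.3 and 46.2 CPM in knockout clone 2, and 24.3 and 22.3 CPM in WT. The knockout libraries lay above WT in both clones (log2 fold change 0.73 ± 0.13 in clone 1 and 1.07 ± 0.13 in clone 2, adjusted p = 0.000178 and 3.47e-06). Cbx6 was lower, with 119 and 99.8 CPM in clone 1, 122 and 135 CPM in clone 2, and 154 and 202 CPM in WT. Its log2 fold change was -0.71 in clone 1 and -0.47 in clone 2 (adjusted p = 0.000519 and 0.00888). The clone 2 call was lost without WT replicate 2 (-0.26) or clone 2 replicate 1 (-0.39), and the change in the mean of both clones was -0.38 without WT replicate 2 against -0.59 with it. Cbx6 shares exon sequence on its strand with the gene Npcd, so its count is uncertain. Cbx7 and Cbx8 passed no test against WT, and neither did Kdm2b, the CXXC protein that brings the PCGF1 form of PRC1 to CpG islands. Kdm2b also shares exon sequence on its strand, with Gm44574, so its count is uncertain. Of the 9 chromobox, polyhomeotic and partner genes, 4 were higher and 2 lower in the mean of both clones, and their median log2 fold change was -0.002. Kdm6b, an H3K27 demethylase, was lower in clone 1 (log2 fold change -0.71, adjusted p = 0.015), at 4.76 and 3.46 CPM in clone 1, 5.71 and 6.22 CPM in clone 2, and 5.42 and 7.74 CPM in WT, but the call was lost without WT replicate 2 (-0.40) or clone 1 replicate 2 (-0.48).

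The H3K9 methylation genes had the smallest median absolute change of the 8 classes, 0.14 on the log2 scale in the mean of both clones; the chromobox and polyhomeotic class had the largest, 0.57. Ehmt2, which encodes the G9a enzyme that dimethylates H3K9, was the member called in both clones, with 422 and 376 CPM in knockout clone 1, 391 and 362 CPM in knockout clone 2, and 236 and 342 CPM in WT. The knockout libraries lay above WT, but the lowest of them was close to WT replicate 2. Its log2 fold change was 0.47 in clone 1 and 0.38 in clone 2 (adjusted p = 0.0169 and 0.0422), and without WT replicate 1 both calls were lost (0.23 and 0.15). The clone 1 call was also lost without clone 1 replicate 1 (0.38), and the clone 2 call without either clone 2 library (0.33 without replicate 1 and 0.42 without replicate 2). Without WT replicate 2, the values were 0.76 in clone 1 and 0.68 in clone 2. In the mean of both clones Ehmt2 was at 0.42, at 0.19 and not called without WT replicate 1, at 0.40 and not called without clone 2 replicate 1, and at 0.72 without WT replicate 2. Trim28, the KAP1 corepressor that brings SETDB1 to retroelements, was higher in clone 2 (log2 fold change 0.39, adjusted p = 0.0136), with 542 and 499 CPM in clone 1, 725 and 669 CPM in clone 2, and 477 and 582 CPM in WT. That call was lost without WT replicate 1 (0.27) or clone 2 replicate 1 (0.34). Suv39h2, Setdb1 and Ehmt1, the partner of Ehmt2, passed no test in either clone: Setdb1 had 80.9 and 80.0 CPM in clone 1, 78.6 and 78.6 CPM in clone 2, and 85.4 and 85.6 CPM in WT. Of the 50-base stretches of Setdb1, 7.96% also occur in other genes or pseudogenes. Ehmt1 shares exon sequence on its strand with Gm37139, so both values are uncertain. In the mean of both clones 1 of the 5 H3K9 genes was higher and none was lower, with 4 not called and a median log2 fold change of 0.14.

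Of the HP1 genes, Cbx1, which encodes HP1 beta, was lower in both clones. It had 67.4 and 70.2 CPM in knockout clone 1, 53.2 and 62.9 CPM in knockout clone 2, and 92.5 and 83.2 CPM in WT, with no overlap between the knockout and WT libraries. Its log2 fold change was -0.35 in clone 1 and -0.59 in clone 2 (adjusted p = 0.0253 and 0.000752), and the clone 1 call was lost without WT replicate 1 (-0.27), clone 1 replicate 1 (-0.32) or clone 1 replicate 2 (-0.37). Cbx5, which encodes HP1 alpha, was lower in clone 2 (-0.35, adjusted p = 0.0208), with 449 and 471 CPM in clone 1, 350 and 396 CPM in clone 2, and 513 and 440 CPM in WT. That call was lost without WT replicate 1 (-0.23) or clone 2 replicate 1 (-0.26). Cbx3, which encodes HP1 gamma, passed no test, with fitted values of 0.30 in clone 1 and 0.05 in clone 2; 7.39% of its 50-base stretches occur elsewhere, mostly in its processed pseudogenes. The median of the 3 HP1 genes in the mean of both clones was -0.20, with 1 lower.

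Lmnb1, the lamin B1 gene, was higher in both clones, with 100 and 111 CPM in knockout clone 1, 104 and 114 CPM in knockout clone 2, and 82.5 and 87.2 CPM in WT. The knockout and WT libraries did not overlap, and the log2 fold change was 0.31 in clone 1 and 0.36 in clone 2 (adjusted p = 0.0344 and 0.0153). The clone 1 call was lost without WT replicate 1 (0.28), clone 1 replicate 1 (0.38) or clone 1 replicate 2 (0.25), the clone 2 call without clone 2 replicate 2 (0.28), and the call in the mean of both clones without clone 1 replicate 2 (0.31). Daxx, a chaperone that deposits histone H3.3 at heterochromatin, was higher in clone 1 (log2 fold change 0.38, adjusted p = 0.0202) at 49.1 and 46.3 CPM, with 42.9 and 45.6 CPM in clone 2 and 32.8 and 39.9 CPM in WT. That call was lost without WT replicate 1 (0.26), clone 1 replicate 1 (0.34) or clone 1 replicate 2 (0.43), and the call in the mean of both clones (0.33) without WT replicate 1 (0.21), clone 1 replicate 1 (0.31) or clone 2 replicate 2 (0.30). Hp1bp3, a linker-histone-like HP1 binding protein, was lower in clone 2 (-0.32, adjusted p = 0.0218), a call lost without clone 2 replicate 1 (-0.25), clone 1 replicate 1 (-0.33) or clone 1 replicate 2 (-0.32). Lbr, the lamin B receptor, passed no test (242 to 270 CPM in the knockout libraries and 294 and 258 CPM in WT). Its exons overlap those of Gm26004 on the same strand.

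Per kilobase of exon (RPKM, CPM divided by exon length), Trim28 was the most abundant member, at 125 ± 7.4 RPKM in knockout clone 1, 167.6 ± 9.5 in knockout clone 2 and 127 ± 17.8 in WT (SD, n = 2 each). Kdm6b was the lowest, at 0.59 ± 0.13 in clone 1, 0.86 ± 0.05 in clone 2 and 0.95 ± 0.24 RPKM in WT. Because several families held 1 higher and 1 lower gene, the ratio of RPKM within each library was formed for 7 pairs that were picked after their values were seen. It is a description, with no test. The ratio of Phc2 to Phc3 was 20.1 and 22.7 in clone 1, 26.9 and 22.4 in clone 2, and 4.55 and 6.09 in WT. Ring1 to Rnf2 was 1.13 and 0.987 in clone 1, 1.62 and 1.30 in clone 2, and 0.365 and 0.647 in WT, so Rnf2 was the more abundant in WT and Ring1 in clone 2. Ezh2 to Ezh1 was 2.79 and 3.10 in clone 1, 2.58 and 3.11 in clone 2, and 1.57 and 1.16 in WT. Phf19 to Mtf2 was 2.02 and 2.01 in clone 1, 3.56 and 2.91 in clone 2, and 1.12 and 1.46 in WT. Cbx2 to Cbx6 was 0.819 and 0.945 in clone 1, 1.05 and 0.851 in clone 2, and 0.391 and 0.275 in WT. For these and for Cbx5 to Cbx1 the knockout and WT libraries did not overlap, while for Ehmt2 to Ehmt1 they did. Neither Cbx5 with Cbx1 nor Ehmt2 with Ehmt1 was a pair of 1 higher and 1 lower gene. Of single tested genes, 27.7% lay above and 30.1% below WT without overlap, and no such share was formed for ratios of other gene pairs. The Cbx2 to Cbx6 ratio rests on the uncertain Cbx6 count.

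**Figure D3:**
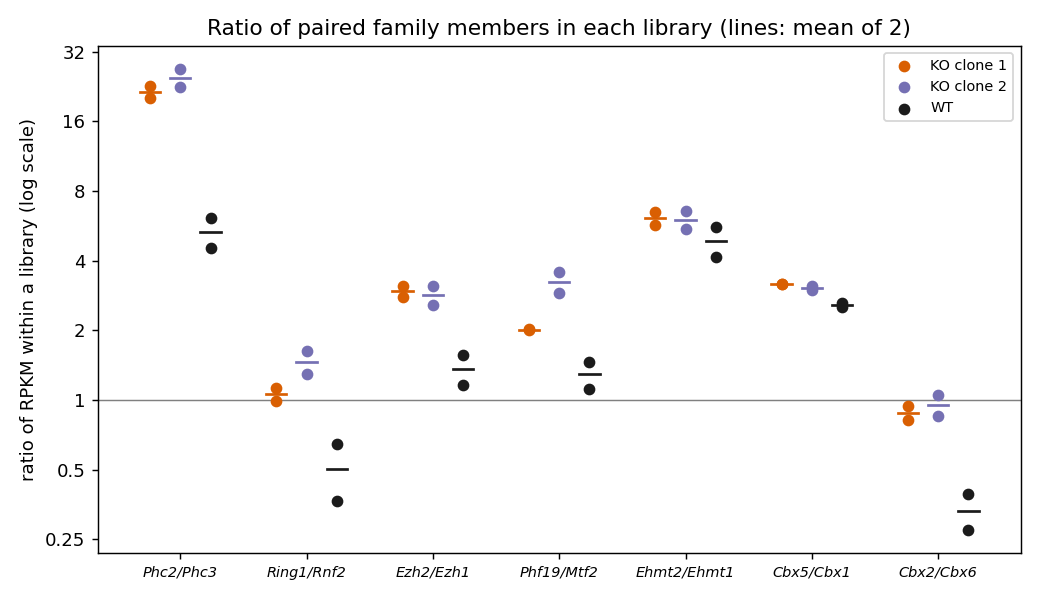
Each point is the ratio of the RPKM of paired family members in 1 library, on a log scale, with clone 1 in orange, clone 2 in purple, WT in black and lines at the mean of 2 libraries. Phc2 to Phc3 is at 20.1 to 26.9 in the knockout libraries and 4.55 and 6.09 in WT, and Ehmt2 to Ehmt1 is the pair whose knockout and WT libraries overlap.

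The clones were then set against each other, which also tests whether their changes from WT differ. Clone 2 was higher than clone 1 for 4 members and lower for 5 (23.1%), against 23.5% of all tested genes. Upper-quartile scaling gave 3 higher and 6 lower. Pcgf5 differed most, with a log2 fold change, clone 2 over clone 1, of -0.73 ± 0.13 (adjusted p = 0.000877), and it was called in every fit that left out 1 library. Rnf2 was lower in clone 2, at -0.61 (adjusted p = 0.0155), as were Phf1 at -0.51 (adjusted p = 0.0413), Suz12 at -0.39 (adjusted p = 0.0448) and Pcgf6 at -0.39 (adjusted p = 0.0328). Cbx8, a chromobox gene, was higher in clone 2 by 0.54 (adjusted p = 0.0162), at 14.2 and 14.7 CPM in clone 1 and 23.7 and 18.5 CPM in clone 2. Kdm2b was higher by 0.43 (adjusted p = 0.0253), Trim28 by 0.42 (adjusted p = 0.0229) and Phf19 by 0.35 (adjusted p = 0.038). The other calls were each lost without at least 1 knockout library. Pcgf6, Trim28 and Phf19 lost theirs without any 1 of the 4, with values from -0.50 to -0.29, 0.36 to 0.48 and 0.30 to 0.40. Rnf2 was at -0.55 without clone 2 replicate 1 and -0.67 without clone 2 replicate 2. Phf1 was at -0.38 without clone 1 replicate 1, -0.53 without clone 2 replicate 1 and -0.49 without clone 2 replicate 2. Suz12 was at -0.49, -0.30 and -0.21, and Cbx8 at 0.51, 0.57 and 0.36, without clone 1 replicate 1, clone 1 replicate 2 and clone 2 replicate 1. Kdm2b was at 0.32 without clone 1 replicate 2, 0.50 without clone 2 replicate 1 and 0.36 without clone 2 replicate 2. For Suz12 the value was -0.61, and still called, without clone 2 replicate 2.

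The median change from WT differed between chromosomes, and several members lie on those whose median was shifted. Whether such a shift covers the whole chromosome or a part of it was not tested. The median log2 fold change of the 655 tested genes of chromosome 17 was 0.55 in knockout clone 1 and 0.17 in knockout clone 2, and this chromosome carries Ring1, Ehmt2, Daxx and Phf1. Chromosome 2, with Phf19, Bmi1, Suv39h2 and Ehmt1, was at 0.26 and 0.29, chromosome 6, with Ezh2, Phc1, Aebp2, Pcgf1 and Cbx3, at 0.21 and 0.22, and chromosome 11, with Cbx2, Suz12, Cbx1 and 4 others, at -0.25 and -0.14. With the median of each chromosome subtracted, 8 of the 16 calls of clone 1, 13 of the 19 of clone 2 and 14 of the 20 of the mean of both remained. Phc2, Phc1, Cbx2 and Ezh2 stayed higher in both clones, with 1.53, 0.75, 1.09 and 0.61 in the mean of both, and Cbx6 and Phc3 stayed lower in both, with -0.52 and -0.42. Ring1 was called in clone 2 (0.45) and in the mean of both (0.34), and in clone 1 its value of 0.23 was not called. Ehmt2 was at -0.09 in clone 1, 0.21 in clone 2 and 0.06 in the mean of both, and none was called. Daxx turned to -0.17 in clone 1 and -0.03 in the mean of both. Phf19 kept its calls in clone 2 (0.56) and in the mean of both (0.40), and was at 0.24 and not called in clone 1. Calls were also lost for Aebp2 in both clones (0.28 and 0.18), Lmnb1 in both clones (0.23 and 0.26), Cbx1 in clone 1 (-0.10), Kdm6b in clone 1 (-0.46), and Ezh1, Mtf2 and Hp1bp3 in clone 2 (-0.26, -0.30 and -0.17). In clone 2, 5 members uncalled before were then called: Phf1 and Bmi1 lower (-0.53 and -0.45), and Scmh1, Cbx8 and Kdm2b higher (0.45, 0.40 and 0.38). Between the clones, 1 member was then higher and 6 were lower in clone 2, and 4 of the 9 earlier calls remained: Suz12, Rnf2, Pcgf5 and Kdm2b (-0.50, -0.58, -0.59 and 0.43). Phf1 was then at -0.13, Pcgf6 at -0.25, Cbx8 at 0.43, Trim28 at 0.32 and Phf19 at 0.32, none called, while Ezh1, Eed and Cbx5 were newly lower (-0.36, -0.44 and -0.39).

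**Figure D4:**
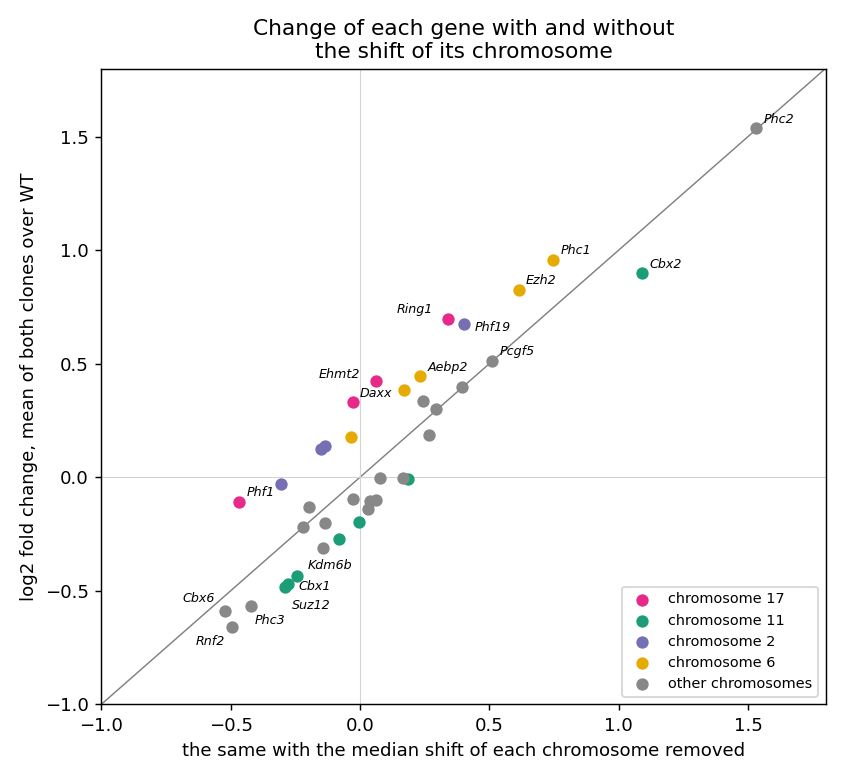
Each point is 1 member: the vertical axis is the log2 fold change of the mean of both knockout clones over WT, and the horizontal axis the same after the median of all tested genes on its chromosome was subtracted. Points on the line are unmoved; the chromosome 17 genes lie above it (Ehmt2 at 0.42 and then 0.06), Cbx2 on chromosome 11 lies below it (0.90 and then 1.09), and Phc2 is at 1.54 and 1.53.

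Related genes outside the 39 were counted as context, with the same fit, where 56% of all tested genes were called in the mean of both clones. Of 23 tested other Polycomb and BAP1 complex genes, 6 were higher and 5 lower (median log2 fold change -0.12). Foxk2 and Asxl1, partners of the H2A deubiquitinase BAP1, were higher in both clones (0.73 and 0.47 in the mean), and Nsd1, an H3K36 methyltransferase, and E2f6, a subunit of a non-canonical PRC1, were lower in both (-0.67 and -0.41). Of 31 other H3K9 and heterochromatin genes, 7 were higher and 9 lower: Uhrf1, which couples H3K9 methylation to DNA methylation at replication, was at 1.09, Kdm7a at 0.57 and Phf8 at 0.32, and Atf7ip, the partner of SETDB1, was at -0.92, Kmt5c at -0.81 and Zfp644 at -0.74. Of 13 other lamina and envelope genes, 5 were higher (Lmna 0.71, Banf1 0.70, Emd 0.60) and 4 lower (Tor1aip1 -0.65, Lemd3 -0.56, Tmpo -0.54).

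Cell cycle genes were counted in the same contrast, in which 26.6% of all tested genes were higher and 29.4% lower. Of 19 S phase genes, 12 were higher, 3 lower and 4 not called in the mean of both clones (median log2 fold change 0.41), and Ccne1, Ung and Cdt1 led at 1.56, 1.32 and 0.97. Of 18 G2 and mitosis genes, 5 were higher (Aurka 0.61, Cdc20 0.58, Bub1b 0.44) and 9 lower (Aurkb -0.81, Kif11 -0.79, Top2a -0.76), with 4 not called and a median of -0.24. The part of the cell cycle in the change of Ezh2 and the other members was not tested. Of the 39 Hox cluster genes, which PRC2 and PRC1 keep silent in many tissues, 9 were tested, all of the Hoxa cluster, of which 0 were higher, 2 lower and 7 not called, with Hoxa5 lower in both clones at -0.70 in the mean.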

How the data were processed

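Total RNA depleted of ribosomal RNA was sequenced from 6 stranded libraries, per the labels' protocols. Reads were aligned with STAR 2.6.0c to GRCm38, per the submitters' processing notes. The deposited values are STAR's read counts per gene, unstranded and for each strand, with no normalization by the authors, per the file headers and values. The reverse-strand counts were used, since they held 92.3% to 95.7% of the stranded gene reads. Summary lines were left out of library sizes: unmapped reads were 8.49% to 14.0%, multimapping reads 24.7% to 29.3% and reads assigned to genes 43.2% to 53.1% of each library. Depth was 10428970 to 22658499 gene reads, so that 3 counts equal 0.13 to 0.296 CPM.

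Identifiers were matched to symbols through GENCODE M21, and all 39 genes matched. Of 54146 genes, 13755 passed edgeR's filterByExpr (minimum count 10). Counts were scaled by TMM and fitted over all 6 libraries with 1 term per group and robust quasi-likelihood (edgeR 4.0.16, R 4.3.3, 3 residual degrees of freedom, common biological coefficient of variation 10.3%). A gene was called where its p, adjusted by Benjamini-Hochberg over all tested genes, was under 0.05, and every adjusted p printed comes from that test. The same steps were run on simulated counts with a small set of changed genes and no chromosome shifts. These data differ in both, so that run does not show the error rate here. Log2 fold changes are knockout over WT, or clone 2 over clone 1. CPM use the TMM-scaled library sizes, and RPKM divide them by exon length. Replicate numbers do not pair the libraries. Deviations of same-numbered libraries from their group means correlated at -0.229 for WT and clone 1, 0.0727 for WT and clone 2, and -0.00105 for the 2 clones. The value for WT and clone 1 means that their opposite-numbered libraries deviated alike to a small degree, and its source was not tested. Alternatives included DESeq2 1.42.0, limma 3.58.1, other scalings and filters, and leaving out each library. All 39 members are described; genes outside them are named from set lists, up to 3 in each direction among those called in both clones. The members and lists were chosen with earlier results of these data known.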

Additional observations from a re-analysis of the deposited data

Results flagged for a closer look

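For 9 members the change from WT differed between the clones, by the test of clone 2 against clone 1 in the edgeR fit. The difference on the log2 scale, clone 2 minus clone 1, was -0.39 for Suz12, -0.51 for Phf1, 0.35 for Phf19, -0.61 for Rnf2, -0.73 for Pcgf5, -0.39 for Pcgf6, 0.54 for Cbx8, 0.43 for Kdm2b and 0.42 for Trim28. With chromosome medians subtracted, Phf1 (-0.13), Pcgf6 (-0.25), Cbx8 (0.43), Trim28 (0.32) and Phf19 (0.32) no longer passed the test. Reads on the strand opposite to Phc2, which the counts used here leave out, were also more frequent in the knockout clones, with a log2 fold change of 1.66 in the mean of both. They numbered 21 and 31 in clone 1, 16 and 30 in clone 2, and 2 and 7 in WT. They made up 0.276% and 0.432% of the stranded Phc2 reads in clone 1, 0.28% and 0.412% in clone 2, and 0.201% and 0.326% in WT, so these shares overlap between knockout and WT.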

How the results depend on the processing

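Phc1 and Phc2 were called higher in both clones in all 17 alternatives, and Ezh2 and Cbx2 in all but the test against a 1.5-fold minimum. That test left 4 higher and 0 lower members in clone 1 (12 and 4 in the main fit), 4 and 1 in clone 2 (10 and 9), 4 and 0 in the mean of both (13 and 7), and 0 and 0 between the clones (4 and 5). Removing chromosome medians left 6 higher and 2 lower in clone 1 and 1 higher between the clones, and turned Ehmt2 to -0.085 and Daxx to -0.166 in clone 1 and Daxx to -0.029 in the mean of both. Upper-quartile scaling gave 7 lower in clone 1. Between the clones, DESeq2's Wald test gave 2 lower, and fits of the compared groups alone gave 9. Leaving out 1 library gave 9 to 12 higher and 1 to 5 lower in clone 1, 7 to 11 and 5 to 9 in clone 2, 11 to 12 and 5 to 8 in the mean of both, and 0 to 6 and 1 to 9 between the clones; with 1 library left in a group, it is taken to vary like the others. The cause of these shifts was not tested. Over single genes and settings, 925 called values stayed called in the same direction, 176 lost the call and 3 turned; 62 uncalled values gained one. With a replicate block the counts were 11 and 4, 10 and 9, 12 and 6, and 3 and 4, and a crossed pairing of WT and clone 1, chosen after seeing the data, gave 14 and 7. Depth limits Kdm6b, Pcgf1 and Pcgf2 most, at under 9 CPM.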
